A study of Arabidopsis thaliana with 18 samples.

Results

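The small RNAs bound by ARGONAUTE1 (AGO1) at the end of a heat stress (HS) were set against the small RNAs of total RNA from the same condition, to find which miRNAs, hairpin arms, families and single trans-acting siRNA (tasiRNA) positions took a larger or smaller share of the AGO1 pool. The members were chosen by label alone: the 3 AGO1-IP HS libraries and the 3 total RNA HS libraries, 6 of the 18 libraries of the series. All were made from 7-day-old Col-0 seedlings, the wild-type accession of Arabidopsis thaliana, that had spent 1 h at 37 °C. AGO1 was precipitated with an antibody against the endogenous protein, and each library was built from 100 ng of RNA. The other 12 libraries are the same RNA types from untreated control seedlings and from seedlings that recovered for 2 h at 22 °C after the HS, 3 of each, and they served here to estimate the spread and as a comparison at the end. Whole seedlings were used, so AGO1 of all organs was pooled, and no precipitation without the antibody is among the labels.

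AGO1 is the main effector of plant miRNAs. A miRNA is cut from a hairpin as a duplex, the guide strand is kept in the ARGONAUTE and pairs with target mRNAs, and the other strand, the passenger, is released and usually lost. tasiRNAs are made from non-coding TAS transcripts: a miRNA-guided cut marks the start, the RNA is made double-stranded and is then diced into phased duplexes whose strands can in turn be bound by AGO1. In plants the first base of a small RNA weighs on which ARGONAUTE binds it. AGO1 is known for small RNAs with a 5′ U, AGO2 for 5′ A and AGO5 for 5′ C. AGO7 is known for binding miR390, and AGO10 for binding miR165 and miR166.

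The sequences that the comparison turns on are given first, from RefSeq for TAIR10.1, with the seed (bases 2 to 8) in capitals. All 422 miRNAs of the count table matched this annotation by name. The first set holds guides with a larger share in AGO1-IP. Copies a to f of miR156 have an identical sequence, and miR156g carries the same seed but starts with C, the substitution U1C counted from the 5′ end.
miR156a-5p: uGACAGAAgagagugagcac
miR156g: cGACAGAAgagagugagcac
miR157a-5p: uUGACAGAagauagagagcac
miR167a-5p: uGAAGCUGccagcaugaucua
miR173-5p: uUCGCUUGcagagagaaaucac
miR847: uCACUCCUcuucuucuugaug
They lie in the MIR genes MIR156a (chr2:10676534-10676553, minus strand), MIR156g (chr2:8412589-8412608, minus), MIR157a (chr1:24913276-24913296, minus), MIR167a (chr3:8108090-8108110, plus), MIR173 (chr3:8236161-8236182, plus) and MIR847 (chr1:2165675-2165695, plus). miR157a has the seed of miR156a shifted by an extra U at its start.

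The second set holds pairs that share their seed and nearly all other bases and are shown because the share held by the first member of each pair was compared between the pools. miR396a-5p and miR396b-5p differ by G21U, miR164a and miR164c-5p by A21G, and miR159a and miR159b-3p, a pair that did not separate, by A21U.
miR396a-5p: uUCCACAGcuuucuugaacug
miR396b-5p: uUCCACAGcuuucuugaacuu
miR164a: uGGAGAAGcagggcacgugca
miR164c-5p: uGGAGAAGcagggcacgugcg
miR159a: uUUGGAUUgaagggagcucua
miR159b-3p: uUUGGAUUgaagggagcucuu
miR161.1 and miR161.2 come from the same arm of the MIR161 hairpin (AT1G48267), with starts 9 nt apart, at chr1:17825731-17825751 and chr1:17825722-17825742 on the plus strand, and so have different seeds.
miR161.1: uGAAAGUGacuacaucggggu
miR161.2: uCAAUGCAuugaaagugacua
The other members of the set lie in MIR396a (chr2:4142443-4142463, minus strand), MIR396b (chr5:13611808-13611828, plus), MIR164a (chr2:19520770-19520790, plus), MIR164c (chr5:9852684-9852704, plus), MIR159a (chr1:27713234-27713254, minus) and MIR159b (chr1:6220813-6220833, plus).
The third set was taken from the most reduced miRNAs averaging 100 counts or more, and its members start with A or G. miR172a is a guide that represses AP2-like flowering regulators, and the others are passenger strands except miR8175, whose arm is not named.
miR172a: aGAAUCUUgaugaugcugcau
miR393b-3p: aUCAUGCGaucucuuuggauu
miR156c-3p: gCUCACUGcucuaucugucaga
miR166b-5p: gGACUGUUgucuggcucgagg
miR169a-3p: gGCAAGUUguccuuggcuac
miR169f-3p: gCAAGUUGaccuuggcucugc
miR8175: gAUCCCCGgcaacggcgcca
They lie in MIR172a (chr2:11942918-11942938, minus strand), MIR393b (chr3:20691778-20691798, plus), MIR156c (chr4:15415426-15415447, minus), MIR166b (chr3:22922212-22922232, plus), MIR169a (chr3:4359011-4359030, minus), MIR169f (chr3:4805713-4805733, minus) and MIR8175 (chr2:3740938-3740957, plus).

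The total RNA HS libraries held 355437 to 835671 reads in the miRNA and TAS tables together, and the AGO1-IP HS libraries 1470690 to 5008971. These sums are not the full depth of the libraries, since reads of other small RNAs are not in the tables. Levels are given as reads per 1000000 miRNA plus TAS reads (rpm), where 1 read was worth 1.20 to 2.81 rpm in total RNA and 0.200 to 0.680 rpm in AGO1-IP. Across the 268 miRNAs with enough reads to be tested, log levels of 2 AGO1-IP HS libraries correlated at 0.980 to 0.987, those of 2 total RNA HS libraries at 0.901 to 0.961 and those of a library of each kind at 0.744 to 0.836. This is a description across miRNAs, which are not independent replicates. The AGO1-IP libraries resembled each other more than the total RNA libraries did. The total RNA library numbered 3 stood apart for several features, among them 2 miRNA families. In it the miR172 guides were at 121 rpm against 12649 and 12928 in the other 2, and the miR390 guides at 3041 rpm against 20181 and 16973. The total RNA libraries numbered 3 were also the lowest for both families in control and in recovery. Results on these families are therefore given with and without the HS library numbered 3. That library was also low for TAS3b, at 237 rpm against 1148 and 1029, and for some single TAS positions named below.

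The AGO1 pool was narrower than total RNA in its 5′ base, in its strand and in the number of sequences that filled it. miRNAs with a 5′ U made up 86.0%, 86.8% and 89.2% of miRNA reads in the total RNA libraries and 98.9%, 98.9% and 98.9% in the AGO1-IP libraries. The 3 AGO1-IP values lay above all total RNA values (87.3% ± 1.68 against 98.9% ± 0.0149, mean ± SD, n = 3; two-sided exact permutation test p = 0.1, the smallest that 3 against 3 allows). The gap was not carried by the most abundant family: without the miR156 and miR157 guides the 5′ U share was 84.3% ± 1.48 in total RNA and 97.7% ± 0.188 in AGO1-IP. Reads with a 5′ G, mostly passenger strands, went from 6.51% ± 0.976 of miRNA reads in total RNA to 0.343% ± 0.0290 in AGO1-IP, and reads with a 5′ A from 5.48% ± 2.19 to 0.495% ± 0.0458, with the third total RNA library the lowest of its group at 3.001%. The 5′ C share went from 0.675% ± 0.0565 to 0.253% ± 0.0213. In each of these the groups did not overlap, with the same smallest p of the exact permutation test, 0.1, which holds for every pool share below whose groups did not overlap.

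**Figure D1:**
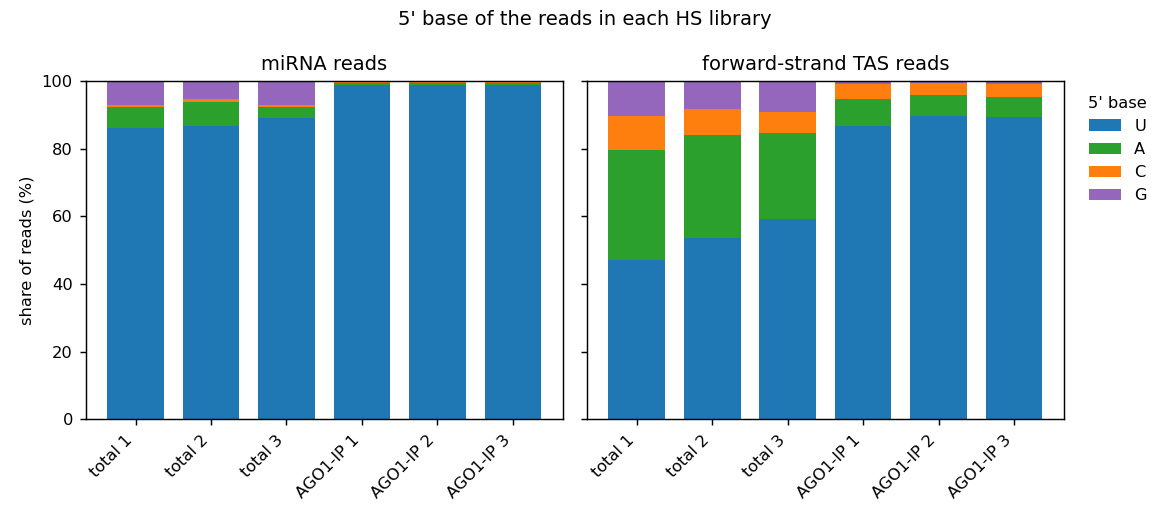
Share of reads (%) by 5′ base in each HS library, 1 bar per library, for miRNA reads (left, annotated 5′ base) and for forward-strand TAS reads (right, base at the position of the read's 5′ end). The U share was 86.0% to 89.2% in total RNA and 98.9% in AGO1-IP for miRNAs, and 47.0% to 59.4% against 86.6% to 89.7% for TAS reads.

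Passenger strands, a list of the arms annotated opposite the known guide of conserved hairpins, which need not be the rarer arm in either pool, took 8.11%, 6.92% and 8.06% of all reads in total RNA and 0.636%, 0.707% and 0.678% in AGO1-IP. That is 11.4 times less in the AGO1 pool. TAS reads also held a smaller share, from 9.43%, 14.6% and 11.7% to 5.72%, 7.56% and 6.52%. The reads concentrated on fewer sequences: 21, 23 and 20 distinct mature sequences made up 90% of miRNA reads in the total RNA libraries, and 12, 13 and 14 in the AGO1-IP libraries. The 10 most read mature sequences of each library held 73.6% ± 1.94 of miRNA reads in total RNA and 85.8% ± 1.44 in AGO1-IP. The miR156 and miR157 guides alone took 17.6% ± 2.82 of all reads in total RNA and 53.0% ± 4.07 in AGO1-IP. They lower the share of all other reads there. Whether the TAS share and the concentration on fewer sequences would differ between the pools without these guides was not tested.

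miRNAs annotated at 20 nt filled much of the AGO1 pool through 1 family. miRNAs of 20 nt went from 12.6% ± 2.61 to 39.7% ± 2.66 of miRNA reads and those of 21 nt from 84.6% ± 2.43 to 56.6% ± 2.43. With the miR156 guides, which are 20 nt long, left out, the 20-nt share was 1.65% ± 0.404 in total RNA and 0.656% ± 0.0661 in AGO1-IP, so the direction turned. miRNAs of 22 nt, the length of miR173, were at 0.889%, 0.758% and 0.823% in total RNA and 0.766%, 2.79% and 2.64% in AGO1-IP, and here the groups overlapped (exact permutation test p = 0.3).

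Each miRNA was then tested with edgeR's quasi-likelihood test on the log2 share ratio, the share of reads in AGO1-IP HS over that in total RNA HS, with p-values adjusted over all miRNAs tested. Of 268 tested miRNAs, 44 had a larger share in AGO1-IP (16.4% of those tested) and 145 a smaller one (54.1%) at an adjusted p under 0.05, with a median log2 share ratio of -1.63. The median is -1.54 when the 17 miRNAs with 0 reads in AGO1-IP or in total RNA are set at the bound that 3 reads per library allow. A share is relative, and a few abundant guides filled much of the AGO1 pool. With TMM factors, which center the bulk of the miRNAs, the median moved to -0.12 and the split to 80 higher and 98 lower, and with RLE factors the median was -0.73. All ratios below are share ratios. The 268 tested miRNAs hold 211 distinct sequences, so counts of miRNAs below are not counts of independent sequences. Beside a list or group, the shares called over all tested miRNAs, 16.4% higher and 54.1% lower, are the values to read its count against. They depend on the level: of the 151 miRNAs averaging 100 counts or more, 25.8% were higher and 44.4% lower, with a median of -0.74. Counts of abundant guides are to be read against these values as well.

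The calls differed by 5′ base. Of 154 tested miRNAs with a 5′ U, 41 were higher and 43 lower in AGO1-IP with a median log2 share ratio of -0.32, and under TMM, where the median is 1.11, 75 were higher and 12 lower. Of 56 with a 5′ A, 1 was higher and 52 lower with a median of -5.55, or -4.35 with the 11 that had no reads in 1 pool at their bound. All 30 with a 5′ G were lower, with a median of -6.15 (-5.88 with bounds), and of 28 with a 5′ C, 2 were higher and 20 lower with a median of -2.98. Guides and passengers were then counted apart. Among the guides, the 84 tested with a 5′ U had a median of -0.02 (29 higher, 20 lower; 1.43 under TMM), while all 7 guides with a 5′ A were lower with a median of -6.80. Among the passenger strands, the 9 with a 5′ U had a median of -1.42 (2 higher, 5 lower; 0.0226 under TMM), and all 24 with a 5′ G were lower. The split by base was fixed by the annotation and not by the values, but sequences are shared between copies, so these are counts of annotated miRNAs and not of independent sequences.

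**Figure D2:**
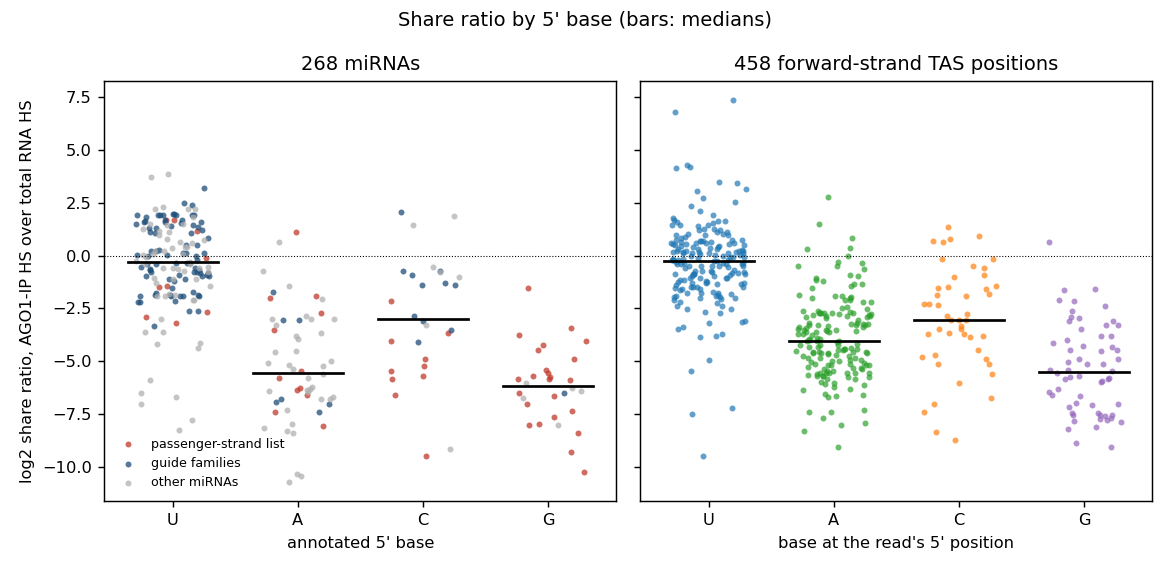
Log2 share ratio of AGO1-IP HS over total RNA HS by 5′ base, 1 point per miRNA (left, 268 miRNAs, colored by strand list) or per forward-strand TAS position (right, 458 positions), with medians as bars and a dotted line at equal shares. miRNAs with U center at -0.32 and those with A and G at -5.55 and -6.15, and the TAS positions follow the same order.

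Only 3 miRNAs without a 5′ U were called higher. miR408-5p, the passenger of the copper-responsive miR408, starts with A and was at 720.2, 420.1 and 515 rpm in total RNA and at 1505, 977 and 1158 rpm in AGO1-IP. All AGO1-IP values were above all total RNA values, a log2 share ratio of 1.14 ± 0.44 (± SE; edgeR adjusted p = 0.0265). miR156g, with a 5′ C, and miR829-3p.2, a young miRNA with a 5′ C and 12 reads in total RNA, were the others, at 2.08 ± 0.67 and 1.89 ± 0.66. miR156g is a single base away from the 5′ U copies of miR156 and stayed rare beside them in either pool: the 5′ U copies held 99.7% ± 0.112 of the pair in total RNA and 99.7% ± 0.0570 in AGO1-IP. Whether reads counted for miR156g came from the 5′ U copies was not tested.

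miR156 and miR157, which repress SPL genes and hold seedlings in the juvenile phase, took the largest share of the AGO1 pool. Their guides took 15.7%, 16.3% and 20.8% of all reads in total RNA and 57.4%, 52.1% and 49.4% in AGO1-IP. All AGO1-IP libraries lay far above the highest total RNA library. Of the 14 guides, which hold 7 distinct sequences, 12 were called higher and none lower. The miR156 guides together went from 9.80% ± 2.08 to 36.7% ± 2.59 of reads, a log2 share ratio of 1.91 ± 0.29 (edgeR adjusted p = 9.29e-06), and the miR157 guides from 7.79% ± 0.740 to 16.2% ± 1.68, a ratio of 1.06 ± 0.21 (adjusted p = 1.93e-04 by edgeR). The copies with an identical sequence share their reads: miR156a-5p, for example, was at 13721, 14684 and 19948 rpm in total RNA and at 64561, 60580.3 and 56450.4 rpm in AGO1-IP. Which copy a read came from cannot be told apart. The 2 guides that were not called were miR157d, at a log2 share ratio of 0.24 ± 0.48, and miR156h, at -1.10 ± 0.54 on 99 reads in total RNA and 0.43 under TMM, and the groups overlapped in both.

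Auxin-related guides split by family. The 4 guides of miR167, which represses the auxin response factors ARF6 and ARF8, were all higher in AGO1-IP, which makes 4 of 9 on the auxin list, while none of the miR160 (ARF10, ARF16 and ARF17) and miR393 (TIR1 and AFB receptors) guides was called, with ratios between -0.40 and 0.12 that are all above 0 under TMM. miR167a-5p was at 7819, 5863 and 5667 rpm in total RNA and at 7824, 29621 and 38544 rpm in AGO1-IP. The first AGO1-IP library was level with the highest total RNA library and the other 2 were far above. The log2 share ratio was 1.97 ± 0.45 (edgeR adjusted p = 5.74e-04), and 1.54 to 2.40 when a library was left out. With the 6 HS libraries alone and the replicate number as a block, it was 1.75 and not called (edgeR adjusted p = 0.147). miR167c-5p, whose match to miR167a-5p is shifted by 1 base so that the seed differs, was at 551, 957 and 1189 rpm against 2493, 5164 and 6746 rpm, and its groups did not overlap (2.42 ± 0.43).

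miR173-5p, the 22-nt trigger of TAS1 and TAS2 tasiRNAs, had a log2 share ratio of 2.48 ± 0.49 (edgeR adjusted p = 1.63e-04). Its level was even across the total RNA libraries, at 2546, 2656 and 2627 rpm, and uneven in AGO1-IP, at 4628, 20886 and 18286 rpm. The first AGO1-IP library was again the lowest, though above all of total RNA. The other tested triggers, 2 of 3, were lower. The guides miR390a-5p and miR390b-5p, which start with A and trigger TAS3, were at log2 share ratios of -3.03 ± 0.59 and -3.04. miR828, the trigger of TAS4, had 6 reads in total RNA and 0 in AGO1-IP, too few to be tested.

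Of the 5 guides against the silencing machinery 3 were higher and none lower, with a median log2 share ratio of 1.34, and TMM called all 5 higher. The share called higher was 16.4% over all miRNAs and 25.8% over those averaging 100 counts or more. The 5 hold only 3 distinct sequences, since the miR162 copies are identical and so are the miR168 copies, and the count is not one of independent guides. miR162a-3p, which targets DCL1, was at 639, 738 and 424 rpm in total RNA and at 1756, 1527 and 2187 rpm in AGO1-IP, and all AGO1-IP values were higher (1.60 ± 0.39, edgeR adjusted p = 9.45e-04). miR403-3p, which targets AGO2, was at 3472, 6121 and 6676 rpm against 10241, 15615 and 15214 rpm, again without overlap (1.34 ± 0.38, adjusted p = 0.00357). miR168a-5p, which targets AGO1 itself, was at 6406, 4453 and 5312 rpm against 8572, 6039 and 7947 rpm. Its groups overlapped and it was not called, at 0.48 ± 0.34 (edgeR adjusted p = 0.210), while TMM called it higher (1.98).

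Outside these families, the largest share ratios among miRNAs averaging 100 counts or more belonged to miR847 and miR164c-5p. miR847, which targets the auxin repressor gene IAA28, was at 2.81, 8.68 and 2.39 rpm in total RNA, 8 reads in all, and at 27.1, 67.1 and 89.1 rpm in AGO1-IP. The groups did not overlap, and the ratio of 3.70 ± 0.72 (edgeR adjusted p = 1.36e-04) was 4.55 without the second total RNA library. miR164c-5p, which represses CUC and other NAC genes, was at 28.1, 20.8 and 17.9 rpm against 119, 247 and 235 rpm, a ratio of 3.19 ± 0.48 (adjusted p = 7.37e-06). miR472-3p, a 22-nt guide against disease resistance genes, was at 22.5, 24.3 and 25.1 rpm against 60.4, 171 and 44.9 rpm. Its ratio of 1.94 ± 0.62 (edgeR adjusted p = 0.00824) leans on the second AGO1-IP library, without which it was 1.13 and no longer called (adjusted p = 0.121). miR840-3p, of a young hairpin, was at 87.2, 127 and 103 rpm against 534, 501 and 426 rpm, without overlap (2.20 ± 0.35). miR5012 gave the highest fitted ratio of all but has 1 read in total RNA against 119 in AGO1-IP, a ratio of pooled shares of 18.8 with a 95% exact interval of 3.31 to 748, which covers counting error only.

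**Figure D3:**
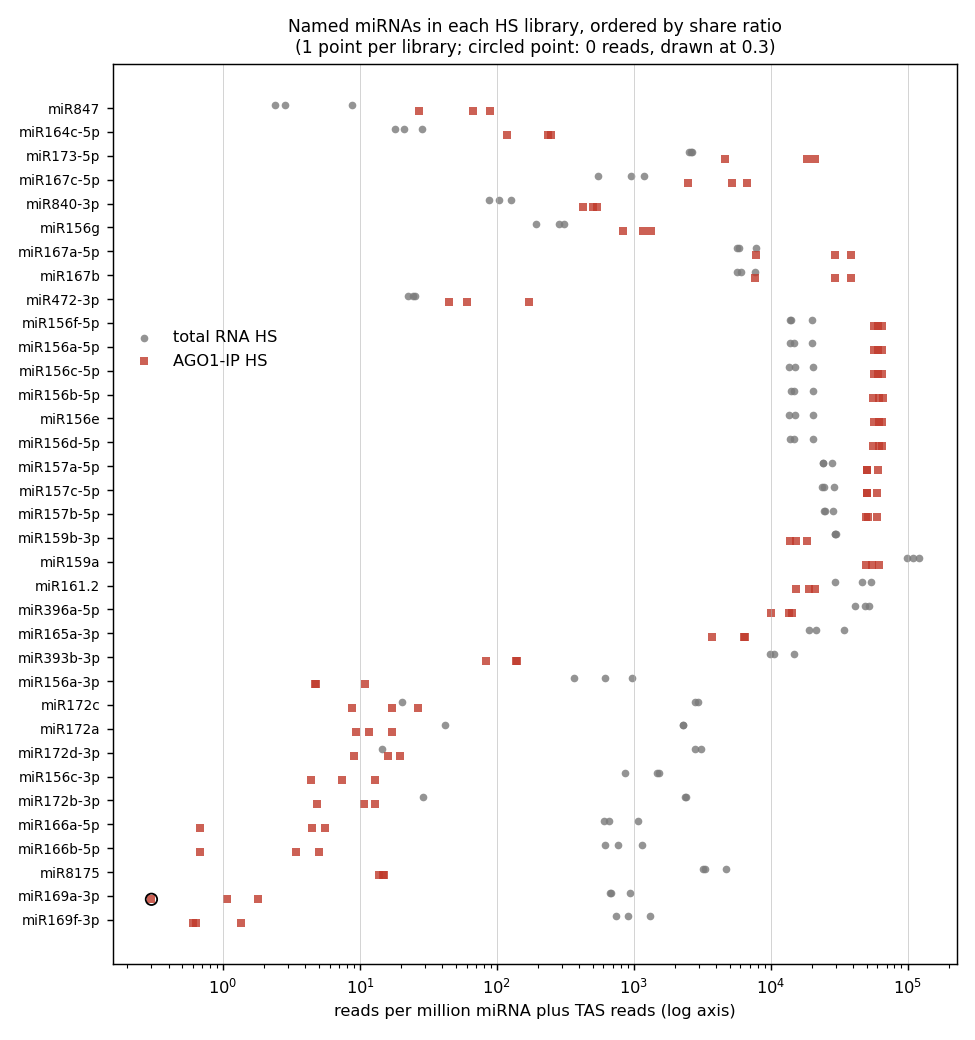
Level of the 35 miRNAs chosen by the fixed rule in each HS library, in reads per 1000000 miRNA plus TAS reads on a log axis, 1 point per library, ordered by log2 share ratio from miR847 (3.70) to miR169f-3p (-10.25). A library with 0 reads is drawn at 0.3 and circled, and the total RNA library numbered 3 appears as the single low gray point of the miR172 guides.

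Several of the most abundant guides of total RNA held a smaller share of the AGO1 pool although they start with U. miR159a, which represses MYB33 and MYB65 and was the most read miRNA of total RNA, was at 97969.5, 109843 and 120976 rpm in total RNA and at 61812, 55030.1 and 49684 rpm in AGO1-IP. Its groups did not overlap, with a log2 share ratio of -0.98 ± 0.29 (edgeR adjusted p = 0.00443), which becomes 0.50 and is not called under TMM. The miR166 guides, which repress HD-ZIP III genes, went from 13.4% ± 3.66 to 3.61% ± 0.819 of reads (-1.89 ± 0.41) and the miR165 guides from 4.97% ± 1.64 to 1.10% ± 0.311 (-2.17 ± 0.46). All 9 miR165 and miR166 guides, which hold only 2 distinct sequences, were called lower. None of them is called under TMM, where their median stays below 0 at -0.41. miR319, which represses TCP genes, went from 4.32% ± 0.533 to 0.734% ± 0.161 (-2.56 ± 0.40), and miR319a was lower also under TMM. Of the 6 miR159 and miR319 guides 5 were lower and none higher, with a median of -1.38 that turns to 0.12 under TMM.

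Other large families were not called on the share scale. The miR161 guides held 6.24% ± 1.17 of total RNA and 5.33% ± 0.592 of AGO1-IP reads, the miR396 guides 6.60% ± 0.620 and 5.51% ± 0.369, miR163 1.66% ± 0.435 and 1.39% ± 0.371, and miR822 1.38% ± 0.355 and 1.66% ± 0.367. For the miR396 sum the groups did not overlap. The ratios lay between -0.26 and 0.26, and TMM called all 4 higher, at 1.23 for miR161, 1.20 for miR396, 1.24 for miR163 and 1.68 for miR822. miR400 was not called either, at 0.881% ± 0.537 against 0.508% ± 0.118, a ratio of -0.79 that is 0.66 under TMM. The sums of miR161 and miR396 hide members that went opposite ways. miR858, which targets MYB genes of flavonoid synthesis, and miR158 were lower, at log2 share ratios of -2.08 ± 0.42 and -1.62 ± 0.36, and neither was called under TMM (-0.64 and -0.16). Over all 167 families with arms kept apart and TAS loci, 22 were higher in AGO1-IP (13.2%) and 89 lower (53.3%), which becomes 52 and 62 under TMM.

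The miR172 and miR390 guides, nearly all with a 5′ A, were among the most reduced guides. miR172a was at 2293, 2272 and 41.9 rpm in total RNA and at 9.33, 11.6 and 17.0 rpm in AGO1-IP. The third total RNA library was close to the AGO1-IP values and the other 2 were far above, and for miR172c and miR172d-3p that library overlapped with them. The miR172 guide family had a log2 share ratio of -6.91 ± 1.72 (edgeR adjusted p = 0.00279), and -7.48 without the third total RNA library (adjusted p = 3.75e-04 by edgeR). With the replicate number as a block in edgeR the ratio was -6.30 and the call was lost (adjusted p = 0.0982), as were those of miR172c (adjusted p = 0.130) and miR172d-3p (adjusted p = 0.125), while miR172a kept its call (adjusted p = 0.0400). The miR390 guides were at 20181, 16973 and 3041 rpm in total RNA and at 1541, 1409 and 1959 rpm in AGO1-IP, without overlap (-3.03 ± 0.58), and at -3.51 without that library. In a block fit of the 6 HS libraries alone, edgeR called neither the miR390 guides (-2.73, adjusted p = 0.119) nor any of miR172a to miR172d (adjusted p = 0.150 to 0.254). What set this library apart for these 2 families was not tested. The guides miR169a-5p, miR169b-5p and miR169c, against NF-YA genes, start with C and were lower by 2.86 to 3.52 on the log2 scale, while the other 7 tested miR169 guides, with a 5′ U, lay between -0.53 and -0.80 and were not called, and are above 0 under TMM.

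Among the passenger strands, 50 of 55 tested were lower and 3 higher, with a median log2 share ratio of -5.44 (-5.21 with bounds), against -1.63 over all miRNAs. miR393b-3p was the most abundant of those named, at 9881, 14753 and 10563 rpm in total RNA and at 140.1, 83.3 and 139 rpm in AGO1-IP, far below without overlap. Its ratio was -6.60 ± 0.50 (edgeR adjusted p = 3.83e-10), 97.3 times less. It is known as a strand that AGO2 binds. miR169f-3p had the lowest ratio of the named miRNAs, -10.25 ± 0.57 (adjusted p = 3.90e-12 by edgeR), from 739.9, 901 and 1309 rpm in total RNA to 0.636, 0.599 and 1.36 rpm in AGO1-IP, where it rests on 8 reads. miR166b-5p went from 1142, 771 and 619 rpm to 3.39, 4.99 and 0.680 rpm, and miR156c-3p from 1533, 856 and 1479 rpm to 7.42, 4.39 and 12.9 rpm. The 3 exceptions above their share of total RNA were miR408-5p, miR156b-3p and miR403-5p. miR156b-3p starts with U, unlike the 5′ G passengers of the other miR156 hairpins named here, and was at 414, 198 and 206 rpm in total RNA and at 544, 1229 and 848 rpm in AGO1-IP, all higher (1.69 ± 0.47, edgeR adjusted p = 0.00311). miR403-5p, also with a 5′ U, was at 5.63, 36.5 and 37.1 rpm against 33.1, 147 and 85.7 rpm, with overlap.

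Of the miRNAs with late numbers, from miR1886 upward, 57 were tested. Of these 3 were higher (5.26%, against 16.4% over all miRNAs) and 41 lower (71.9%, against 54.1%), with a median of -5.18, or -3.66 with 11 miRNAs at their bound (10 higher and 33 lower under TMM). Together they took 0.895% ± 0.0946 of reads in total RNA and 0.0999% ± 0.0118 in AGO1-IP. miR8175, with a 5′ G, went from 3182, 3314 and 4715 rpm to 14.8, 13.8 and 15.0 rpm, far lower in every AGO1-IP library (log2 share ratio -8.00 ± 0.79, 257-fold). Whether the reads of miR8175 came from its hairpin or from a tRNA was not tested. Of the young miRNAs, numbered above miR400 and up to miR870, 52 were tested: 8 were higher (15.4%) and 19 lower (36.5%), with a median of -0.61 (18 and 11 under TMM, with a median of 0.79). Nutrient and copper guides, against transporters and copper proteins, had 0 of 19 higher and 5 lower with a median of -0.91 (6 higher and 0 lower under TMM, with a median of 0.64). Guides against PPR genes had 1 of 5 higher and 3 lower, close to the 16.4% and 54.1% over all miRNAs, with a median of -1.22 that is 0.23 under TMM. The list of other developmental guides had 8 of 26 higher, namely the 3 miR164, the 4 miR170 and miR171 guides and miR396b-5p, and 10 lower, with a median of -0.75 that is 0.65 under TMM. The 8 make 30.8% of the list, against 16.4% over all miRNAs and 25.8% over those averaging 100 counts or more. For the 4 miR170 and miR171 guides the groups overlapped. The 26 guides hold only 14 distinct sequences.

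Arm use was compared within each hairpin, where no scaling enters. Of 59 hairpins with both arms tested, 48 had a different arm ratio in AGO1-IP HS than in total RNA HS (81.4%; edgeR's diffSpliceDGE, adjusted p under 0.05), 29 toward the 5p and 19 toward the 3p arm. The arm that starts with U gained in nearly every case. Where U started the 5p arm alone, 22 of 24 hairpins moved to 5p and none to 3p, with a median difference of the arms' log2 share ratios of 6.07. The exceptions, not called, were miR841a and miR841b. Where U started the 3p arm alone, 14 of 16 moved to 3p and none to 5p, with a median of -4.83, and miR158a and miR846 were not called. With U on both arms, 2 of 10 moved to 5p and 5 to 3p, and with U on neither, 5 of 9 moved to 5p (miR169a, miR169b, miR390a, miR390b and miR408) and none to 3p. Hairpins with an identical arm sequence, such as the 5p arms of miR156a to f, share reads and are not independent cases. Their arm shares depend on how such reads were counted.

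The largest arm differences toward 5p were those of miR156c (9.24), miR164c (9.04), miR156d (8.94), miR156a (8.54), miR391 (8.28, and 11.4 without the second AGO1-IP library) and miR167a (7.70), and toward 3p those of miR472 (-7.40), miR398b (-6.45), miR398c (-6.38), miR166b (-6.06), miR398a (-5.82) and miR166a (-5.75). In the miR156 hairpins the guide already led: miR156a had 93.4%, 97.6% and 97.0% of 5p reads in total RNA and nearly all in AGO1-IP. In some hairpins the leading strand was exchanged. The 5p arm of miR472 made up 96.3%, 96.4% and 93.2% of the hairpin's reads in total RNA and 20.6%, 6.25% and 15.4% in AGO1-IP, so the arm that dominated total RNA was the minor one with AGO1 in every library (arm difference -7.40, adjusted p = 1.06e-09 by edgeR). miR398b, whose 3p arm represses copper/zinc superoxide dismutases, went from 82.0%, 91.9% and 86.1% of 5p reads to 13.2%, 7.12% and 3.85%, an equally complete exchange. The 3p guide miR398b-3p itself was not called, at 0.11 ± 0.56 with groups that overlapped. miR167a went the other way, with 33.99%, 44.3% and 28.7% of 5p reads in total RNA and 97.4%, 99.3% and 99.3% in AGO1-IP. miR164c went from 29.4%, 46.2% and 33.3% to 100.0%, 99.8% and 98.9%, and miR391 from 20.5%, 12.03% and 33.3% to 100.0%, 97.9% and 100.0%. None of these groups overlapped. miR393b stayed mixed: its 5p guide was 0.931%, 0.562% and 0.998% of the hairpin's reads in total RNA and 30.1%, 53.8% and 47.2% in AGO1-IP, higher without overlap but not the main arm in every library. miR408, with A on both arms, went from 23.6%, 22.2% and 29.9% of 5p reads to 75.3%, 68.7% and 67.3%, so the arm listed as passenger was the leading one in the AGO1 pool.

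**Figure D4:**
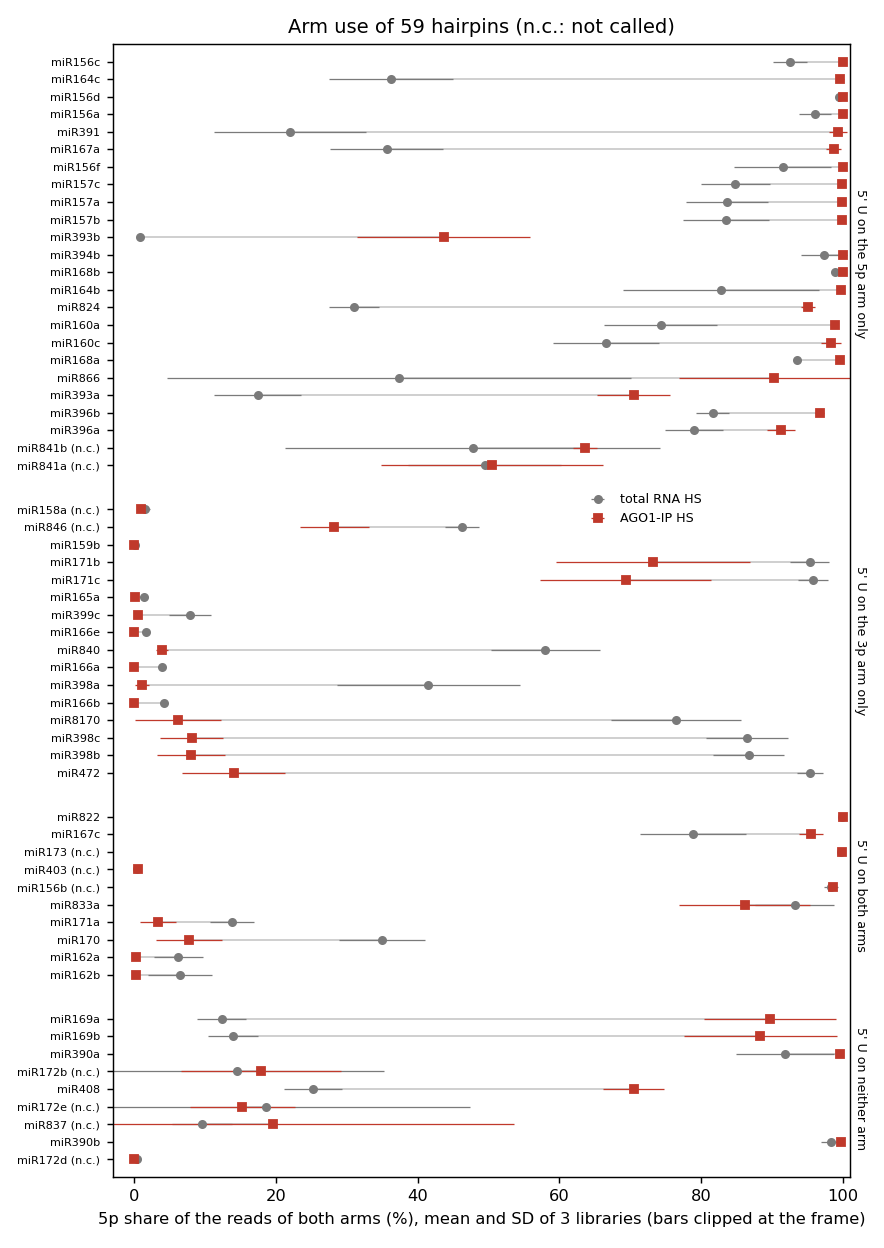
Share of 5p reads (%) among the reads of both arms for the 59 tested hairpins, mean and SD of the 3 libraries, in total RNA HS (circles) and AGO1-IP HS (squares), grouped by which arm starts with U; n.c. marks hairpins that were not called. Hairpins with U on the 5p arm alone lie further right in AGO1-IP and those with U on the 3p arm alone further left.

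Near-identical guides of 1 family did not always share the same fate. miR396a-5p and miR396b-5p, which repress growth-regulating factors and differ in the last base by G21U, were exchanged as the leading copy. miR396a-5p held 73.5%, 69.3% and 73.1% of their joint reads in total RNA and 22.9%, 18.999% and 26.8% in AGO1-IP. Every AGO1-IP library was far below every total RNA library (exact permutation test p = 0.1, the smallest possible). miR396a-5p had a log2 share ratio of -1.92 ± 0.36 and was at 48979, 41302 and 52553 rpm against 13596, 10084 and 14171 rpm, while miR396b-5p was at 17699, 18262 and 19354 rpm against 45772, 42990.1 and 38718 rpm (1.20 ± 0.25). Both were called by edgeR, with adjusted p-values of 1.00e-04 and 2.67e-04, and in control and recovery the signs were the same, at -1.76 and -1.34 for miR396a-5p and 0.59 and 0.83 for miR396b-5p. A read that ends before the last base fits both copies, and the rule for counting such reads is not given in the sources used here, and the part of read length in this exchange was not tested.

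The same kind of separation appeared within miR161 and miR164. miR161.2 held 57.7%, 73.1% and 73.3% of the reads of both miR161 forms in total RNA and 38.0%, 32.9% and 32.8% in AGO1-IP, without overlap. miR161.1 was higher in AGO1-IP, at 0.85 ± 0.25, and miR161.2 lower, at -1.22 ± 0.32, though the latter turns to 0.23 and is not called under TMM. miR164a and miR164b-5p, with an identical sequence, held 89.1%, 90.4% and 84.2% of the joint reads with miR164c-5p in total RNA and 68.8%, 68.8% and 73.7% in AGO1-IP, so the c copy gained within the family. miR159a against miR159b-3p is the contrast: miR159a held 76.5%, 78.9% and 80.5% in total RNA and 77.1%, 78.3% and 78.3% in AGO1-IP, with overlap (exact permutation test p = 0.7, difference -0.721 percentage points). Of 19 pairs of sequences that differ by 1 base with a mean of at least 100 counts each, the groups did not overlap in 9 (47.4%). In these pairs the member with the lower ratio of AGO1-IP to total RNA reads was put first, so the direction of its change was set by these same values. Some sequences enter more than 1 pair, so these are not independent pairs. The pair miR393b-3p and miR393a-3p, which differ by G8U, was among them, with miR393b-3p at 96.5% ± 1.03 of the pair in total RNA and 75.9% ± 4.93 in AGO1-IP.

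The tasiRNA positions are numbered along the TAS transcript from 1 at its 5′ end. A read of the forward strand is named by its 5′ end (suffix 0), and a read of the reverse strand by its leftmost base (suffix 16), which is its 3′ end, so that its 5′ base depends on its length, which the table does not give. The 21-nt windows at the positions with the most altered shares, or with the most reads in AGO1-IP, are shown 5′ to 3′ from RefSeq for TAIR10.1 with the first base in capitals. For the reverse positions the window assumes 21 nt.
TAS2_585_16: Uucuaccauccgaucaacaag
TAS2_521_16: Auaucccauuucuaccaucug
TAS2_520_16: Uaucccauuucuaccaucugg
TAS3a_842_0: Uuucuccuaccuugucuaucc
TAS3a_843_0: Uucuccuaccuugucuauccc
TAS1c_442_0: Uucuaaguucaacauaucgac
TAS1c_463_0: Gaacuagaaaagacauuggac
TAS1c_461_16: Ccaaugucuuuucuaguucgu
TAS1b_543_0: Augggagauguccggaaugau
TAS2_564_16: Aguuacaacuuuuuuuacggg
TAS2 (AT2G39681) lies at chr2:16539384-16540417 on the minus strand, TAS1c (AT2G39675) at chr2:16537288-16538277 on the minus strand, TAS1b (AT1G50055) at chr1:18549204-18550042 on the minus strand and TAS3a (AT3G17185) at chr3:5861491-5862437 on the plus strand. All are annotated as TAS genes.

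As loci, the TAS1 loci and TAS3b had a smaller share in AGO1-IP, and TAS2, TAS3a and TAS4 were not called. TAS1c went from 3.87%, 6.23% and 5.26% of all reads in total RNA to 2.11%, 2.24% and 2.11% in AGO1-IP, without overlap (log2 share ratio -1.25 ± 0.30, edgeR adjusted p = 9.23e-04), TAS1a was at -1.45 ± 0.33 and TAS1b at -2.39 ± 0.32. Under TMM the signs of TAS1c and TAS1a turn, to 0.21 and 0.0106. TAS3b was the most reduced, at -4.72 ± 0.65, and its total RNA level was lowest in the library numbered 3, without which the ratio was -5.15. TAS2 was at 1.98%, 3.01% and 2.48% in total RNA and 2.23%, 3.44% and 2.95% in AGO1-IP, with overlap (0.20 ± 0.30, adjusted p = 0.544 by edgeR). TMM called TAS2 higher (1.65). TAS3a at -0.46 ± 0.37 and TAS4 at -0.52 ± 0.46 were not called, and under TMM TAS3a was called higher (1.01) and TAS4 was at 0.99. Within the TAS reads TAS2 went from 21.01%, 20.67% and 21.23% to 38.9%, 45.4% and 45.2%, so it became the leading TAS locus of the AGO1 pool.

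Of 903 TAS positions tested, 49 had a larger share in AGO1-IP (5.43%) and 568 a smaller one (62.9%), with a median of -2.46, and under TMM the split was 228 and 309. The forward positions repeat the order by base seen in miRNAs. With a 5′ U, 21 of 182 were higher and 43 lower with a median of -0.24, and under TMM 107 were higher and 8 lower with a median of 1.62. With a 5′ A, 1 of 167 was higher and 145 lower with a median of -4.05, with a 5′ C none of 47 was higher and 36 were lower (-3.03), and with a 5′ G none of 62 was higher and 59 were lower (-5.50, or -4.08 with the 15 positions at their bound). In reads, a 5′ U was carried by 47.0%, 53.7% and 59.4% of forward TAS reads in total RNA and by 86.6%, 89.7% and 89.3% in AGO1-IP. By locus, 17 of 196 tested positions were higher in TAS2, 11 of 113 in TAS3a, 14 of 240 in TAS1a, 5 of 212 in TAS1c, 2 of 10 in TAS4, and none of 114 in TAS1b or of 18 in TAS3b.

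A single position stood for much of the TAS2 reads in the AGO1 pool. TAS2_521_16 was at 979, 1116 and 845 rpm in total RNA and at 7816, 13194 and 10324 rpm in AGO1-IP, every AGO1-IP library several times above every total RNA library. The log2 share ratio was 3.41 ± 0.47 (edgeR adjusted p = 2.95e-07), and the position held 15.9% of the TAS reads of AGO1-IP against 0.789% in total RNA. Its first base is A if the read is 21 nt long and U if it is 22 nt long. TAS2_585_16, with U at either length, was at 267, 118 and 169.9 rpm against 1263, 3653 and 3657 rpm (3.96 ± 0.56, adjusted p = 4.27e-07 by edgeR), and here the first AGO1-IP library was the lowest of its group. Over the whole locus the forward strand gave 56.2%, 61.8% and 65.6% of TAS2 reads in total RNA and 30.6%, 25.3% and 26.1% in AGO1-IP, so TAS2 was read mostly from its reverse strand in the AGO1 pool. The neighboring TAS2_520_16, with U if 21 nt long, was at 8.44, 3.47 and 16.8 rpm against 118, 188 and 122 rpm, without overlap (3.82 ± 0.61, and 4.67 without the third total RNA library). The reverse positions TAS1c_461_16 and TAS2_650_16 were among the most read of the AGO1 pool, with 7.92% and 5.95% of its TAS reads against 2.65% and 2.01% in total RNA. Their groups did not overlap, but neither was called (0.80 ± 0.39 and 0.79 ± 0.44), while TMM called both higher (2.64 and 2.66). One position, TAS2_566_0, was called on opposite sides by the scalings, at -1.02 ± 0.46 here and 0.91 under TMM (edgeR adjusted p = 0.0476 and 0.0478). TAS3a went the other way from TAS2 as a whole, with 34.3%, 45.5% and 55.5% of reads on the forward strand in total RNA and 70.9%, 69.6% and 69.9% in AGO1-IP.

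Of the TAS3a positions named here 3 start at neighboring bases, 841 to 843. TAS3a_843_0 was at 59.1, 29.5 and 39.5 rpm in total RNA and at 461, 973 and 793 rpm in AGO1-IP (4.14 ± 0.54, edgeR adjusted p = 1.00e-07), without overlap. TAS3a_842_0, whose window starts 1 base earlier, had 1 read in total RNA and 796 in AGO1-IP, a ratio of pooled shares of 126 with a 95% exact interval of 22.5 to 4969. TAS3a_841_0 and TAS3a_809_0 were also higher, on 4 and 9 reads in total RNA, at 3.48 ± 0.96 and 4.31 ± 0.92, with adjusted p-values of edgeR under the threshold whichever library was left out. The sizes depend on single libraries. The first was 4.84 without the second total RNA library and 2.68 without the third, and the second was 6.36 without the third total RNA library and 3.38 without the second AGO1-IP library. TAS3a_842_0 was fitted at 6.81, and at 10.31 without the third total RNA library, which held its only total RNA read. All 4 start with U. Among the most read positions of total RNA, TAS1c_442_0 was at 4496, 14145 and 15378 rpm and at 7150.3, 7214 and 6269.9 rpm in AGO1-IP. Its groups overlapped, and it was not called (-0.72 ± 0.50), while TMM called it higher (1.15).

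The most reduced positions start with G, A or C, taking reverse reads as 21 nt. TAS1c_463_0 went from 1854, 3050.2 and 3774 rpm in total RNA to 6.57, 5.79 and 2.72 rpm in AGO1-IP, 542 times less (-9.08 ± 0.69, edgeR adjusted p = 5.82e-12), with all AGO1-IP libraries near 0. TAS1b_543_0 was at 3033, 2262 and 289.6 rpm against 3.60, 1.60 and 6.12 rpm (-9.06 ± 1.19), with the third total RNA library the lowest of its group, as also for TAS1c_401_0 and TAS1c_465_0; without it the ratio was -9.57. TAS2_564_16 was at 886, 677 and 353 rpm against 2.76, 3.59 and 2.04 rpm (-7.75 ± 0.67). TAS1c_401_0 (-7.40, and -8.00 without that library, with overlap in the full set), TAS1c_465_0 (-7.31) and TAS1c_551_16 (-7.10) complete the set. TAS1c_401_0 starts 1 base after TAS1c_400_0, a U position that was at -0.95 ± 0.47 and not called (0.92 under TMM).

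tasiRNA duplexes can be read as strand pairs, a forward position with the reverse position 2 bases lower, as 21-nt strands with overhanging 3′ ends would lie. Of 123 such pairs, the forward strand's share was higher in AGO1-IP without overlap between groups in 37 (30.1%) and lower in 43 (35.0%). Where U started the forward strand alone it was higher in 21 of 39 and lower in 2, where U started the reverse strand alone, if 21 nt long, it was higher in 1 of 23 and lower in 16, and with U on both it was higher in 7 and lower in 5 of 19. With U on neither strand, again taking reverse reads as 21 nt, it was higher in 8 and lower in 20 of 42. The reverse positions TAS1c_461_16 and TAS2_521_16 start with C and A if 21 nt long, but both start with U if 22 nt long. These pairs were laid out after values had been seen and carry no test beyond the exact permutation test of each. At TAS1c_463_0 and TAS1c_461_16 the forward strand held 40.7%, 44.6% and 55.3% of the pair in total RNA and 0.129%, 0.113% and 0.0428% in AGO1-IP, so nearly every read left in the AGO1 pool was of the reverse strand. TAS1c_421_0 and TAS1c_419_16 went the opposite way, from 38.0%, 46.0% and 66.4% to 98.6%, 99.5% and 99.5% on the forward strand, with the reservation that TAS1a_484_0, TAS1b_479_0 and TAS1c_421_0 share the same 21 bases, so their reads cannot be told apart by locus. At TAS2_587_0 and TAS2_585_16, where both strands start with U, the forward share went from 72.1%, 83.5% and 77.6% to 33.6%, 12.06% and 12.04%.

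**Figure D5:**
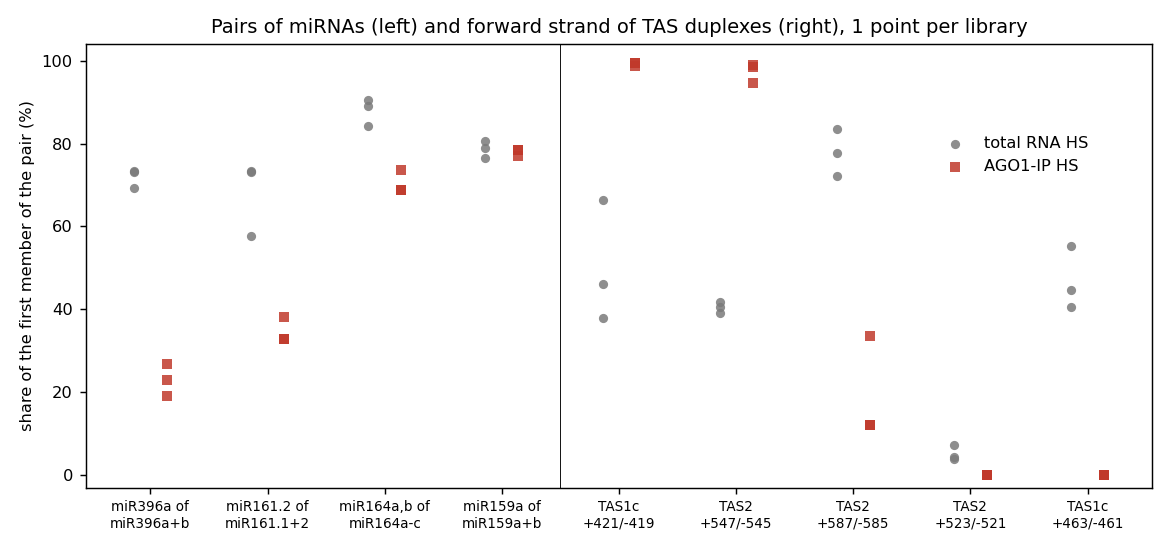
Share (%) of the first member of each pair in every HS library, 1 point per library: miRNA pairs on the left, and on the right the forward strand (+) of TAS duplexes with its partner on the reverse strand (-), labelled by position. miR396a-5p drops from 69.3% to 73.5% in total RNA to 18.999% to 26.8% in AGO1-IP, while miR159a overlaps between the groups.

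The same contrast in control and recovery seedlings was made with the other 12 libraries. The 5′ U share of miRNA reads was 86.8% ± 2.35 in total RNA and 98.5% ± 0.111 in AGO1-IP of control, and 87.2% ± 2.64 and 98.3% ± 0.769 in recovery. Passenger strands were at 9.93% ± 1.43 and 0.966% ± 0.0143 in control and at 8.96% ± 1.61 and 0.806% ± 0.150 in recovery. The miR156 and miR157 guides were at 24.1% ± 2.26 and 51.4% ± 1.33 in control, so the AGO1-IP share was near that of HS and the total RNA share above it. Tested as a change of the share ratio between conditions (the interaction term of edgeR's fit), 0 of 268 miRNAs differed between HS and control and 0 between HS and recovery at an adjusted p under 0.05. At an unadjusted p under 0.05 there were 13 and 14. TMM called 1 and 0, and DESeq2 called 2 (miR157c-3p and miR159b-5p) and 0. Of 903 TAS positions 0 were called in either contrast, with 27 and 38 at an unadjusted p under 0.05.

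The miRNAs with the 5 smallest p-values of that test in each contrast follow. miR157c-3p, a passenger strand, was at 6249, 3369.7 and 4124 rpm in total RNA HS and at 75.1, 69.1 and 86.4 rpm in AGO1-IP HS, a log2 share ratio of -5.90 against -3.51 in control and -3.90 in recovery, a change of -2.39 ± 0.60 from control (edgeR adjusted p = 0.164). miR159b-5p changed by -3.63 ± 0.98 (edgeR adjusted p = 0.170) on 47 reads in total RNA HS, and miR8175 by -2.96 ± 0.84 from recovery (edgeR adjusted p = 0.378). miR172e-5p and miR168b-3p lay on the positive side, at changes of 3.53 and 3.18 from control, and miR164b-5p at -1.74. From recovery, miR5662 and miR5659 changed by -4.51 and -4.13, but both had 0 reads in AGO1-IP HS, so their total RNA levels are at least 17.3-fold and 29.0-fold higher by the limit of 3 reads per library and the fitted values are no measure of size. miR393b-3p changed by -1.37 from recovery. None of these passed the adjusted threshold in edgeR, which does not show that the ratios are equal.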

How the data were processed

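Small RNA libraries (RealSeq v2, 15 PCR cycles, no molecular identifiers stated) were made by the authors from total RNA and AGO1-IP RNA. The authors trimmed reads with Cutadapt 2.9, kept 18 to 34 nt, mapped them with Bowtie2 to TAIR10 and deposited raw counts per mature miRNA and per TAS position and strand. How reads that match several copies were counted is not given in the sources used here, so single copies of identical miRNAs are uncertain. No column was left unused (0).

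The counts of all 18 libraries were fitted in 1 model with 6 groups (edgeR 4.0.16, glmQLFit robust, glmQLFTest, filterByExpr) with miRNA plus TAS reads as library size and no further factor, and Benjamini-Hochberg adjustment at 0.05. The SE printed with a log2 share ratio is the size of the ratio divided by the square root of its F statistic. It was not estimated separately and is only a rough guide for features with few reads. Arms were tested with diffSpliceDGE, and single shares with a two-sided exact permutation test (scipy 1.17.1). The scripts were tested on simulated data. R 4.3.3, DESeq2 1.42.0, Python 3.11.15 and pandas 2.3.3 were used. Alternatives were TMM and RLE factors, the own table as denominator, DESeq2, filters, only the 6 HS libraries, a replicate block, sums over identical sequences, dropping the late-numbered miRNAs, and leaving out each HS library in turn.

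Named miRNAs were the 12 with the largest ratio in each direction among those called with a mean of at least 100 counts over the HS libraries, and the 8 most read in each pool. For arms and TAS positions they were the 6 largest in each direction (means of at least 100 and 50 counts), and for families those with at least 0.5% of reads. miRNAs named outside this rule come from the lists or were chosen after their values were seen. Members and lists were chosen with earlier results of these data known, and pairs and duplexes after values were seen. The study describes the total RNA and AGO1-IP libraries as made on shared biological replicates, so equal numbers were taken to mark a shared source, although no label states that link. The deviations of same-numbered HS libraries from their group means correlated at 0.0205, 0.137 and 0.0395 over 268 miRNAs. How the replicates were grown apart is not given in the sources used here. Intervals and limits cover counting error only. Fewer molecules and fewer cells that hold them cannot be told apart in whole seedlings.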

Additional observations from a re-analysis of the deposited data

How the results depend on the processing

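Both the scaling and the filter on low counts moved the counts of calls. With TMM factors 80 miRNAs, 52 families and 228 TAS positions were higher and 309 positions lower. With RLE factors 41 families and 213 positions were higher and 338 positions lower, and DESeq2 gave 68 miRNAs, 43 families and 214 positions higher and 326 positions lower. Directions turned under TMM for miR159a (0.50), miR159b-3p (0.59), miR161.2 (0.23), the miR159 (0.51), miR161 (1.23), miR163 (1.24), miR396 (1.20) and miR400 (0.66) families, TAS1a (0.0106), TAS1c (0.21), TAS3a (1.01) and TAS4 (0.99). Under RLE they turned for miR161 (0.65), miR163 (0.63), miR396 (0.59), miR400 (0.12), TAS3a (0.42) and TAS4 (0.34), with the same rounded values under DESeq2. The change of denominator follows from the construction of these factors. With the reads of each table as its own denominator 126 of 852 tested TAS positions were higher and the passenger share differed by -8.00 percentage points. With a mean of at least 50 counts, fewer features were tested: 167 miRNAs, 96 families and 222 TAS positions. Of these 74 miRNAs, 42 families and 102 TAS positions were lower and 30 positions higher, and 28 arms changed. The main fit had 49 higher and 568 lower of 903 TAS positions. Per position tested, the higher calls thus rose and the lower calls fell. Without the late-numbered miRNAs 55 of 119 tested families were lower. With the 6 HS libraries alone 334 of 557 tested TAS positions were lower, a share near that of the main fit, 568 of 903.

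Leaving out 1 HS library in turn gave 38 to 44 miRNAs higher and 142 to 153 lower, 17 to 22 families higher and 88 to 99 lower, 34 to 53 TAS positions higher and 556 to 636 lower, and 47 to 50 arms. The numbers tested varied too, from 269 to 285 miRNAs, 170 to 187 families and 938 to 1088 TAS positions. Of the named items, miR472-3p lost its call without the second AGO1-IP library, miR159b-3p lost it without the third (-0.82, edgeR adjusted p = 0.0635), and the miR400 guides gained one without the first total RNA library (-1.22).

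A replicate block, which pairs the libraries by number, gave 43 miRNAs higher and 141 lower, 23 families higher and 88 lower, 47 TAS positions higher and 542 lower, and with the 6 HS libraries alone 336 of 557 tested TAS positions lower. Over all libraries it changed the call of no named item other than the miR172 guides given above, and with the 6 HS libraries alone also those of miR167a-5p, miR167b, the miR167 family (1.78, edgeR adjusted p = 0.159), miR172a, miR172b-3p and the miR390 family.

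Depth limits both sides of the ratios. An average of 3 reads per library was 1.09 rpm in AGO1-IP, which limits low ratios, and 5.75 rpm in total RNA, which limits high ratios. Guides with high ratios that are rare in total RNA, such as miR847, were measured on few reads there.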
